A study of Mus musculus with 2 samples.

Results

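Interferon signalling was followed through 9 genes, Isg20, Isg15, Oas2, Irf1, Irf7, Irf9, Stat2, Ddx58 and Mx1, out of 22180 genes with a value on the arrays. A probe set belonged to the group when its platform annotation named exactly one of these symbols, and each of the 9 genes was read by 1 probe set. The arrays, 2 in all, came from mouse CD8+ T cells that had been naive when they were activated by beads carrying antibodies to CD3 and CD28, in recombinant human interleukin-2 at 100 U/mL. One culture received DMSO, the solvent, and the other bezafibrate at 30 µM for as long as the culture lasted, with expansion to day 13. Bezafibrate is a fibrate drug that activates the PPAR family of nuclear receptors. Both groups shared the stimulation and the interleukin-2, and no genetic change or added interferon is named for either. The labels state neither strain nor age, nor how many animals a culture came from. Each group was 1 array, so no difference below could be set against a spread between replicates, and no test was run.

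Interferons are secreted proteins that warn cells of infection. Type I interferons bind the IFNAR receptor, whose kinases JAK1 and TYK2 activate STAT2, and STAT2 and IRF9 belong to ISGF3, a complex that binds the interferon-stimulated response element (ISRE) in promoters. Interferon-γ, a product of activated CD8+ T cells themselves, acts through gamma-activated sites (GAS), and Irf1 is one of the best known genes induced in that way.

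Letters of such elements occur around the starts of some of the 9 genes, and the stretches that hold them are printed here because the ISRE and GAS are the kinds of site that define interferon targets. RefSeq promoter windows of assembly GRCm38.p6, from 250 bases before a start to 50 after it, matched 7 of the 9 genes with 11 starts in all; Oas2 and Mx1 were not matched. The ISRE core was searched on both strands as the letters GAAA, any 2 bases and GAAA again, and GAS as TTCNNNGAA, which reads the same on both. Capitals mark the matched letters, and each sequence runs 5′ to 3′ along its gene.
Isg15, ISRE core, chr4:156200855-156200916, minus strand: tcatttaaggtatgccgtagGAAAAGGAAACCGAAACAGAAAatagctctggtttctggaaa
Stat2, ISRE core, chr10:128270256-128270305, plus strand: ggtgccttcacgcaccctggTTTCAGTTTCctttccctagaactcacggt
Ddx58, ISRE core, chr4:40239814-40239843, minus strand: tccccagcgccctgaggcagTTTCGATTTC
Irf1, GAS, chr11:53769904-53769952, plus strand: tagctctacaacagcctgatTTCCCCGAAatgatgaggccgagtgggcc
Isg20, GAS, chr7:78913331-78913379, plus strand: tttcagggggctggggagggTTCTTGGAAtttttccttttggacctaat

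Isg15 held 3 overlapping ISRE cores in a row, the first beginning 78 bases before its start. Stat2 held 1 on the other strand, 222 bases before the start, and Ddx58 1 that begins 2 bases past it. The GAS letters lay 90 bases before the first listed start of Irf1 and 73 before that of Isg20. An ISRE core occurred in the windows of 3 of the 7 matched genes and in 3.99% of all 27025 genes with a window; GAS occurred in 2 of the 7 and in 9.55% of all. A variant with 1 base between the repeats, GAAANGAAA on either strand, occurred in the windows of Ddx58, Isg15 and Stat2 and in 3.70% of all genes, and in Stat2 it overlaps the ISRE core. A match is a run of letters and shows no binding. The windows of Irf7 and Irf9 held none of these letter runs. Only exact letters inside the windows were searched, so a missing match does not show that a gene lacks such a site.

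**Figure D1:**
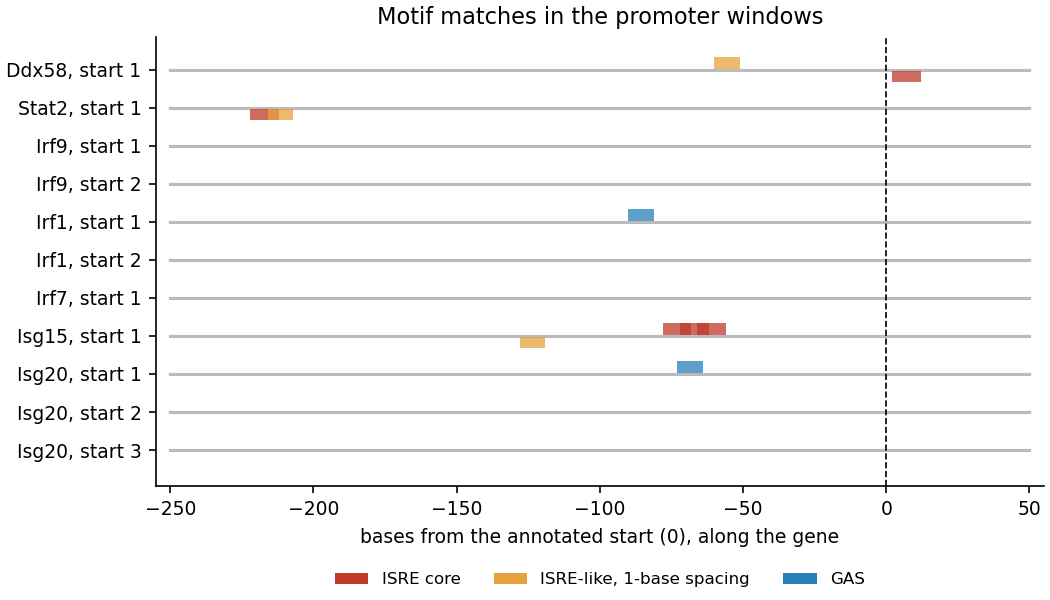
Matches to the ISRE core, to the ISRE-like variant with 1-base spacing and to GAS in the promoter windows of the 7 matched genes, 1 line per annotated start, plotted in bases from that start; bars above a line are on the gene's strand and bars below on the opposite one (GAS reads the same on both). The 3 overlapping ISRE cores of Isg15 and the GAS of Irf1 and Isg20 lie within 90 bases before a start.

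Across the 9 genes there was no common direction. With bezafibrate, 4 were lower (Isg20, Oas2, Isg15, Irf7), 4 were higher (Irf1, Ddx58, Mx1, Stat2) and Irf9 was equal, with a median log2 ratio of bezafibrate over DMSO of 0.00. Without Mx1, which lay under the floor, 4 of the other 8 were lower, 3 higher and 1 equal, with a median of −0.12. The ratios ran from −0.43 to 0.23. A limit of 0.32 on the log2 scale was used to count differences. Isg20 and Oas2 were the members past it, both lower. Thus 2 of 9, or 2 of the 8 above the floor, lay beyond it downward and 0 upward. Of 11438 genes over the floor, 6.33% lay beyond it downward and 5.83% upward, and their median ratio was 0.00. The floor is the median signal of named genes, 4.88 for DMSO and 4.85 for bezafibrate in log2 units; a gene lies above it when its brighter array exceeds that array's value, and 8 of the 9 genes did. At a 1.5-fold limit 0 of the 9 genes differed, against 1.19% of genes above the floor in either direction.

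Ddx58 encodes RIG-I, a cytosolic helicase that recognises viral RNA and starts the interferon response. Its log2 level was 8.26 on the DMSO array and 8.48 on the bezafibrate array. The bezafibrate value was the higher one by 0.22, or 1.16-fold, which 13.6% of genes above the floor matched or exceeded upward. Subtracting the median ratio of genes similar in level and length left Ddx58 at 0.14.

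Stat2 and Irf9 encode subunits of the DNA-binding complex ISGF3. Stat2 had log2 levels of 8.16 and 8.19, a ratio of 0.03. Irf9, the subunit that recognises the ISRE, read 8.24 on both arrays. Its values were identical to the last deposited digit, as were those of 215 of the genes above the floor (1.88%). Both genes were thus almost level between the arrays.

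Irf1 and Irf7 are transcription factors that are themselves induced by interferons, and they lay on opposite sides. Irf1, which drives antigen presentation and other interferon-γ targets, had log2 levels of 8.47 and 8.70, higher with bezafibrate by 0.23 or 1.17-fold. Irf7, the factor that amplifies interferon-α production, had 8.26 and 8.02, a ratio of −0.24 or 1.19-fold lower. Upward, 12.5% of genes above the floor were as far out as Irf1, and downward 11.97% were as far out as Irf7. After the same subtraction Irf7 was at −0.07 and Irf1 at 0.31, so the difference of Irf7 was smaller by that measure and its sign the same.

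**Figure D2:**
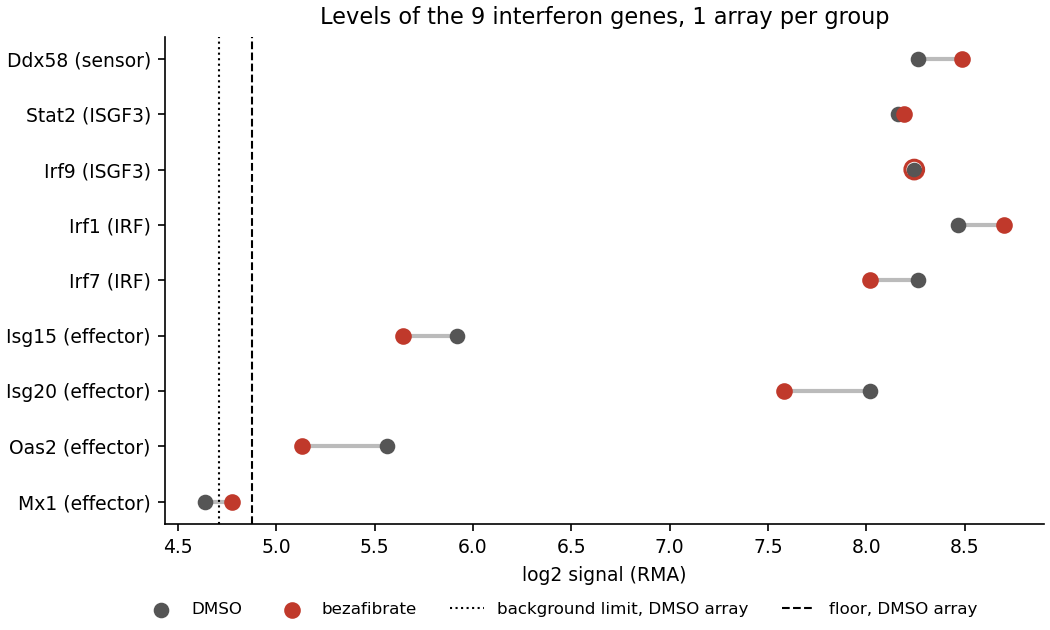
Log2 signal of the 9 genes on the DMSO array (grey) and the bezafibrate array (red), with the background limit (dotted) and the floor (dashed) of the DMSO array; Irf9 is ringed where both values coincide. Isg20 (8.02 and 7.58) and Oas2 (5.56 and 5.13) show the widest gaps, and Mx1 lies at the background limit.

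The antiviral effectors included the lowest ratios. Isg20 encodes an exonuclease that degrades single-stranded RNA. Its log2 level was 8.02 with DMSO and 7.58 with bezafibrate, a ratio of −0.43 (1.35-fold lower). Of genes above the floor, 2.19% had a ratio that low or lower.

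Oas2, an oligoadenylate synthetase that senses double-stranded RNA and activates RNase L, had levels of 5.56 and 5.13. Its ratio was also −0.43 (1.35-fold lower), and 2.23% of genes were that low. The gene was dim, at 0.86 above the background limit on the DMSO array and 0.45 above it on the bezafibrate array. That limit is the 95th percentile of 1390 olfactory and vomeronasal receptor genes, 4.71 with DMSO and 4.68 with bezafibrate. Among those receptor genes, 32.0% lay beyond 0.32 in either direction. Differences of this size are commoner among dim genes. When the genes above the floor were divided by level into 4 equal classes, 9.79% of the dimmest class, which holds Oas2, lay beyond 0.32 downward. In the third class, which holds Isg20, 4.65% did.

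Isg15 encodes a ubiquitin-like protein that is joined to other proteins during the interferon response. It had levels of 5.92 and 5.64, a ratio of −0.27 (1.21-fold lower), and 9.50% of genes were that low. Mx1, a dynamin-like GTPase that blocks influenza virus and is defective in many inbred mouse strains, had levels of 4.64 and 4.77. The DMSO value was within background and the bezafibrate value 0.10 above the limit, so no fold is given for Mx1. Isg20, Isg15 and Oas2 were therefore lower on the bezafibrate array, with Mx1 at the edge of detection.

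**Figure D3:**
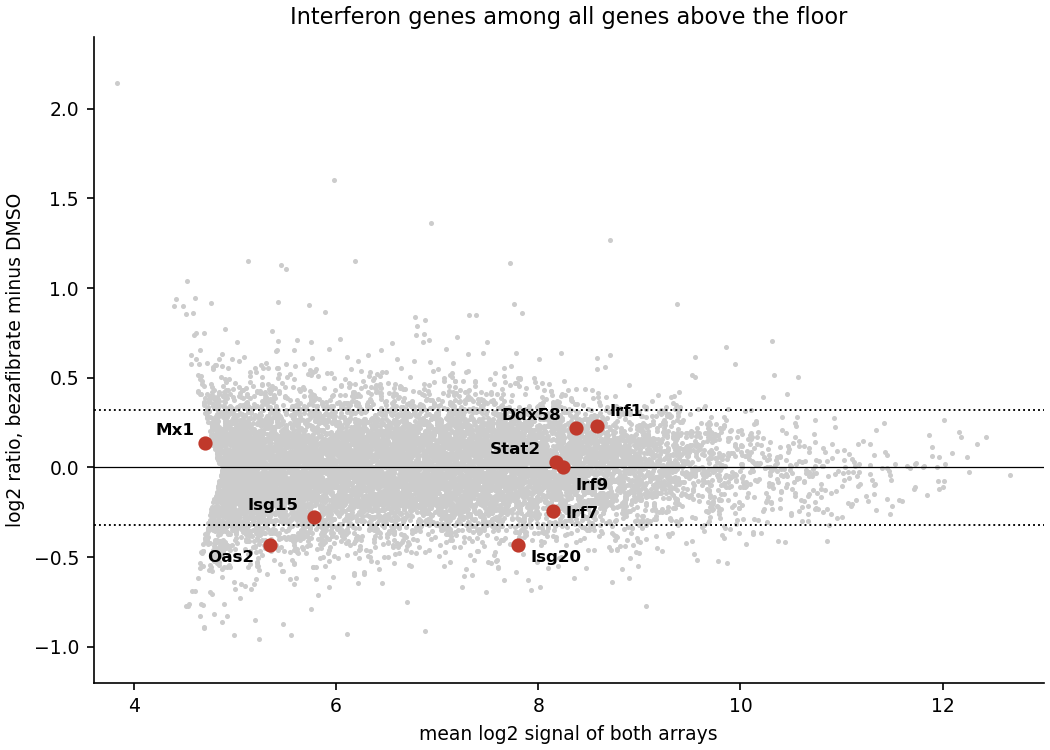
Log2 ratio of bezafibrate over DMSO against the mean log2 signal of both arrays, for the 11438 genes above the floor (grey) and the 9 interferon genes (red, Mx1 being under the floor); dotted lines mark 0.32 in either direction. Isg20 and Oas2, both at −0.43, lie past the lower line and the other 7 between the lines.

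Gene length moved with the ratio across genes. Genes above the floor shorter than 5 kb had a median ratio of −0.08, those of 5 to 20 kb −0.06 and those of 20 kb or more 0.05, and the ratio had a Spearman's rho of 0.28 with length across 11422 genes, which share both arrays. Isg15 (1395 bp) and Irf7 (3317 bp) are short and were lower, and Ddx58 (36049 bp) is long and was higher. Oas2 (19554 bp) and Isg20 (7001 bp), of middle length, were lower as well, whereas Irf1 (8361 bp) was higher. With that trend and the one in level subtracted, Isg20 was at −0.36, Oas2 at −0.38 and Isg15 at −0.20, each with the sign it had before.

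The wider pathway was read from 8 lists of interferon genes, 111 genes measured and 90 above the floor. Of those 90, 48 were lower with bezafibrate, 40 higher and 2 equal, with a median ratio of −0.02; among all genes above the floor 49.7% were lower. Beyond 0.32 lay 3 downward (3.33%, against 6.33% of all genes) and 3 upward (3.33%, against 5.83%), and 0 reached 1.5-fold. Leaving out the 9 genes, 1 of 82 lay beyond 0.32 downward and 3 upward. The pathway as a whole thus held no larger share of differing genes than the array did, in a comparison not matched by level. Of the 4 level classes of all genes, the brightest had 4.02% beyond 0.32 downward and 3.46% upward. The dimmest had 9.79% and 7.52%. The pathway shares are therefore close to that of bright genes.

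The ligands were mostly silent. Of 13 measured interferon genes, 8 were within background on both arrays, among them Ifng at 4.44 and 4.38 and Ifnb1, the interferon-β gene, at 3.30 and 2.78. Of the 5 above the floor, Ifna14 had the highest ratio, 0.37 (5.57 and 5.94), and Ifna1 the lowest, −0.10 (6.47 and 6.37). Ifna5 shared its probe set with Ifna6. Interferon-α genes are near-identical copies, so which of them a probe set reads is uncertain.

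The receptors and their kinases hardly differed. The subunits of the type I receptor, Ifnar1 and Ifnar2, had ratios of 0.00 and 0.00 at levels of 9.28 and 8.86 with DMSO. The interferon-γ receptor chains Ifngr1 and Ifngr2 had ratios of 0.01 and 0.02. The kinases Jak1, Jak2 and Tyk2 had 0.09, 0.07 and 0.01, and Il10rb, a chain shared by the interferon-λ and interleukin-10 receptors, −0.13. Ifnlr1, the specific chain for interferon-λ, was within background on both arrays. Over the 9 genes of this list above the floor the median ratio was 0.01, and 0 were past 0.32 in size.

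Among 7 interferon regulatory factors with a probe set of their own, 5 were lower on the brightest one, Irf8 included. Irf1 was higher and Irf9 equal. The median ratio was −0.09, with 0 past 0.32 in size. Irf4, which supports the expansion of activated T cells, had levels of 6.15 and 5.95, a ratio of −0.20. Irf3, the factor that first switches on interferon-β, had −0.15 and Irf2, a repressor and rival of IRF1, −0.09. Irf8 had −0.07 on its brighter probe set and 0.15 on a dimmer one, so its direction was not settled. Irf5 shared its probe set with Tnpo3 and was not counted. That probe set was higher with bezafibrate, at 4.69 and 5.01, a ratio of 0.320 that is just within the limit.

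Sensors and adaptors divided evenly. Of 14 above the floor 7 were on each side, and the median ratio was −0.01. Ddx58 had the highest ratio of that list and Ticam1, the adaptor of TLR3, the lowest at −0.17 (5.84 and 5.67). Trim25, a ubiquitin ligase that promotes RIG-I signalling, had 0.19, and Ifih1, which encodes the related sensor MDA5, 0.01. Dhx58, the third helicase of the family, had −0.16, and Mavs, the mitochondrial adaptor of RIG-I and MDA5, −0.12.

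The median ratio of the 35 antiviral effectors above the floor was −0.05, with 22 lower and 13 higher. With each gene read by its brightest probe set, Isg20 and Oas2 were the 2 beyond 0.32 downward. Trim30a, a tripartite motif protein of mice, was the 1 beyond it upward, with a ratio of 0.34 (5.95 and 6.28). Lgals3bp had −0.02 on its brightest probe set and −0.41 on a dimmer one (8.43 and 8.02), so its value was not settled. Within the oligoadenylate synthetases above the floor, Oas1b had a ratio of 0.23, Oas3 0.03 and Oasl2 −0.06, so the value of Oas2 was not shared by these relatives. Under the floor, Oas1g had −0.54, within background on both arrays, and Oasl1 0.20. A dim probe set shared by Oas1a and Oas1g had 0.41. Among the IFIT genes, whose proteins bind foreign RNA, Ifit1 had −0.30, Ifit3 −0.17 and Ifit2 0.21. The membrane proteins Ifitm1, Ifitm2 and Ifitm3, which hinder virus entry, had −0.21, −0.18 and −0.17.

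ISG15 is joined to its targets by an E1, E2 and E3 enzyme and removed by USP18. Uba7, the E1, had a ratio of 0.10, Ube2l6, the E2, −0.03 and Herc6, the mouse E3, 0.27 (7.78 and 8.05). Usp18, which removes ISG15 and also blocks the type I receptor, had −0.28 (7.25 and 6.98), close to Isg15 at −0.27. Of the 5 genes 3 were lower and 2 higher, and 0 passed 0.32 in size.

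Of the 6 feedback inhibitors 4 were lower. Socs1, which inhibits the JAK kinases, had levels of 8.001 and 7.70 and a ratio of −0.30, and Socs3 had 6.36 and 6.06, also −0.30. The highest ratio was 0.09 for Ptpn11, with Pias1, an inhibitor of STAT signalling, at 0.08 and Ptpn2, a phosphatase of JAK1, at −0.04. The median was −0.16 and 0 passed 0.32 in size. A second probe set of Socs3, within background, had −0.11.

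Targets of interferon-γ showed the widest range, and 6 of the 11 above the floor were higher. The median ratio was 0.05. Gbp4, a guanylate-binding GTPase, had the highest ratio at 0.46 (8.66 and 9.12), and Gbp7 had 0.21. Psmb10, a catalytic subunit of the immunoproteasome, had the lowest at −0.37 (10.17 and 9.80). The other catalytic subunits Psmb8 and Psmb9 had −0.30 and −0.21. Tap1, the peptide transporter, had −0.02 and Nlrc5, the activator of MHC class I genes, 0.18. The chemokine genes Cxcl9, Cxcl10 and Cxcl11 were within background on both arrays. Irf1, higher by 0.23, thus stood beside targets on both sides of 0.

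**Figure D4:**
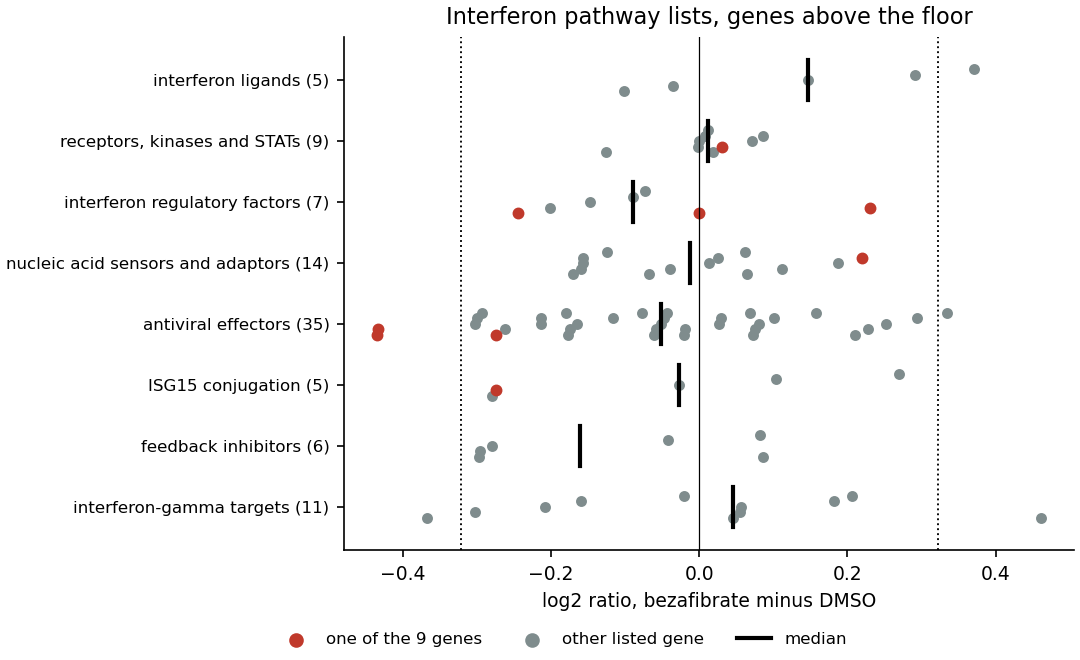
Log2 ratio of bezafibrate over DMSO for every gene above the floor in 8 interferon pathway lists, with the number of genes in brackets; red points are among the 9 genes, black bars are list medians and dotted lines mark 0.32 in either direction. The list medians run from −0.16 to 0.15, and 6 different genes lie past a line, 3 on each side.

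Ratios were also set out by the ISRE core, as a description with no test. Of the pathway genes above the floor with a RefSeq window, 24 held the core, 13 of them lower and 11 higher with a median of −0.03, and 47 did not, 24 lower, 21 higher and 2 equal with a median of 0.00. Beyond 0.32 lay 0 downward and 2 upward of those with the core, and 2 downward and 0 upward of those without. Across all genes above the floor, the 337 with an ISRE core had a median of 0.00, with 6.53% beyond 0.32 downward and 7.12% upward, against 6.01% and 5.16% of the 8668 without. The 720 with GAS letters had a median of 0.01, with 6.11% and 5.14%, against 6.02% and 5.24% of those without. The core itself was common in the effectors, at 15 of the 34 with a window (44.1%).

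Markers of the labelled cell type lay far above background, and those of plasmacytoid dendritic cells were dim. Cd3d, Cd3e, Cd3g, Cd8a, Cd8b1 and Cd2 had log2 levels from 8.56 to 11.10 on the arrays, and each was lower with bezafibrate, with a summed level of 12.96 and 12.81. Of 5 markers of plasmacytoid dendritic cells, the main source of interferon-α in blood, 4 were within background on both arrays, Siglech among them. Of other cells, within background on both arrays were 3 of 4 macrophage, 3 of 5 B cell, 3 of 5 dendritic cell, 2 of 3 natural killer cell, 5 of 5 neutrophil and 2 of 4 CD4 T cell markers. Marker lists went both ways. The summed B cell level was 9.27 and 8.95, carried by Ighm, the dendritic cell level 9.24 and 8.84, carried by Cd209a, and the natural killer cell level 6.94 and 6.29, carried by Fcer1g. All 4 CD4 T cell markers were higher with bezafibrate, Cd4 itself within background on both arrays, and their summed level was 6.51 and 6.71. The part of these markers in the ratios of Isg20, Oas2, Isg15 and Irf7 was not tested. In RNA from a whole culture, fewer cells of a type and less RNA per cell cannot be told apart.

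**Figure D5:**
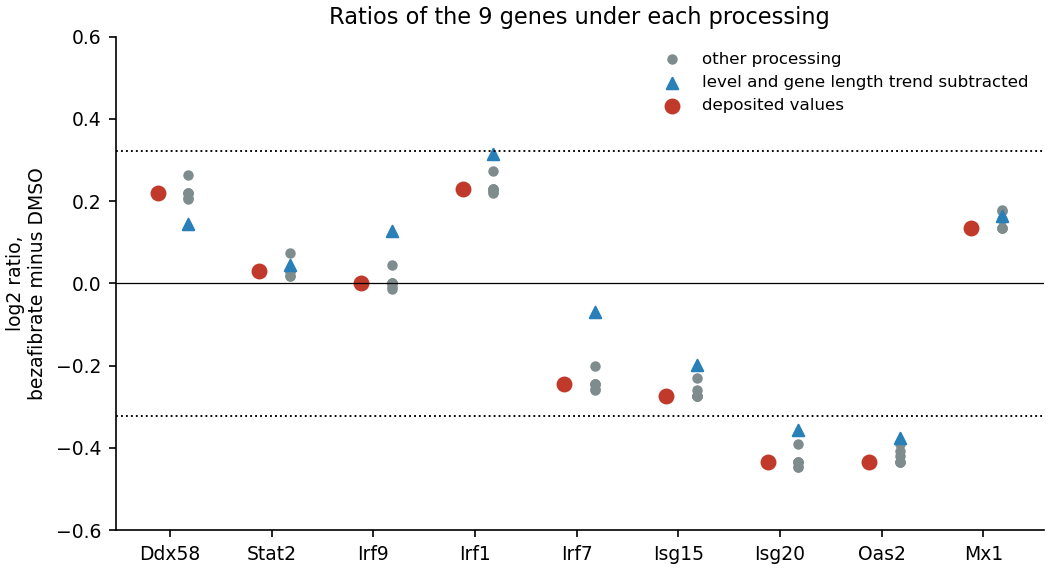
Log2 ratio of each of the 9 genes with the deposited values (red), under 6 other ways of processing (grey) and with the trends in level and length subtracted (blue triangles); dotted lines mark 0.32 in either direction. Isg20 and Oas2 lie below the lower line in every case drawn, Irf7 is at −0.07 with those trends subtracted, and Irf9 moves between −0.01 and 0.13. The grey points for other uses of probe sets equal the red ones, since each gene has 1 probe set.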

How the data were processed

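The values are log2 signals per probe set that the authors deposited, which the submitters' processing notes credit to RMA and Affymetrix Expression Console; neither versions nor a genome build is given in the sources used here. The log2 scale was read from the values. RMA equalises the arrays, so a shift shared by most genes would not be seen, and it compresses differences of dim genes. Of 33793 probe sets with values, the 23521 with 1 gene symbol were used, the brightest standing for a gene. The ratio was bezafibrate minus DMSO. Older symbols were matched through RefSeq synonyms. Gene lengths are genomic spans from RefSeq GRCm38.p6, matched by symbol. The text names all 9 genes, each list's highest and lowest ratio above the floor, every gene of the receptor and regulatory factor lists, and any gene past 1.5-fold. It also names other listed genes, relatives of the members among them, that were chosen after their values were seen. Those further genes do not stand for their lists. With 2 arrays no genes of like pattern could be sought. The 9 genes and all lists were chosen with earlier results of these data known. The calling and the loess step were run on simulated data as a check of the code only. That simulation had less noise than the receptor genes show here and larger changes than the 9 genes. It therefore gives no error rate for these arrays. Calculations used Python 3.11.15, numpy 2.4.6, pandas 2.3.3, statsmodels 0.14.6 and matplotlib 3.10.9.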

Additional observations from a re-analysis of the deposited data

How the results depend on the processing

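Results were recomputed with quantile normalization, a loess curve on level, a higher floor or none, centring on housekeeping genes, other choices of probe set, probe sets of several genes, a 1.5-fold limit and the mean for the median; subtracting the trend in level and gene length was added after seeing the data. Of 171 recomputed values, 163 stayed within 0.1 (log2) or 1.5 times the reported count, and 8 did not. Part of that agreement was fixed in advance, because each of the 9 genes has 1 probe set and could not change under other choices of probe set. Several list medians are themselves smaller than 0.1 in size, so a change of sign could count as staying. The count of members at least 0.32 (log2) lower was 1 with the floor at the 75th percentile, which Oas2 does not reach, and 0 at 1.5-fold. With that floor the median was 0.10 for ISG15 conjugation and −0.042 for feedback inhibitors. The latter was also −0.042 when each gene was read by its probe set nearest to 0. Without a floor the ligand median was 0.0040. That of the interferon-γ targets was then −0.045, a change of sign within the 0.1 limit. With the length trend subtracted, Irf7 was at −0.069 and Irf9 at 0.13. Isg20 ran from −0.45 to −0.36 and Oas2 from −0.43 to −0.38 over the alternatives. No paired analysis was possible because each group is 1 array. Leaving out a replicate was not possible for the same reason, and the number of arrays limits the precision.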
